A study of Homo sapiens with 6 samples.

Results

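The genes described here are the small nucleolar RNAs (snoRNAs) SNORD113 and SNORD114 of the imprinted 14q32 region, on chromosome 14, and SNORD115 and SNORD116 of the imprinted 15q11 region, on chromosome 15. They were chosen by symbol from the array annotation, 1 gene per probe set, and number 46 of the 18404 genes tested: 2 SNORD113, 4 SNORD114, 20 SNORD115 and 20 SNORD116 copies. The choice rule took the probe set with the highest mean intensity for each gene, but each of the 46 had a single such probe set. Measured values thus decided nothing at that step, though the families themselves were chosen with earlier results of these data known. The cells were HaCaT, a human keratinocyte line that became immortal spontaneously, profiled on 6 arrays. In the 3 shTP63 samples a lentivirus carried a hairpin against TP63, the gene of the basal keratinocyte factor p63, and in the 3 shControl samples it was a control vector. RNA was taken 72 hours later in both groups. All 6 samples are of 1 cell line, and nothing in the labels says that replicates were separate cultures, so a p-value speaks of the spread among these 6 samples, and that spread may be technical. The level of TP63 was not analysed here, so directions rest on the sample labels.

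Box C/D snoRNAs are short RNAs cut from introns of host transcripts and bound by the methyltransferase fibrillarin and its partners, and most of them guide ribose methylation of ribosomal RNA. Those of the imprinted clusters are orphans without a known ribosomal target, repeated in tandem as near-identical copies and transcribed from 1 parental chromosome only: the maternal MEG3-MEG8 unit carries SNORD113 and SNORD114, and the paternal SNURF-SNRPN-SNHG14 unit carries SNORD116 and then SNORD115. SNORD115 is best known from neurons, where it is complementary to the HTR2C serotonin receptor RNA. SNORD116 is found more widely, and loss of its paternal copies is central to Prader-Willi syndrome.

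Of the 4 families SNORD116 alone had copies brighter than the measure of background given below, and it was higher in shTP63: 15 of 20 copies rose and 0 fell in limma's moderated test (adjusted p under 0.05, Benjamini-Hochberg over all genes). Over all genes tested 16.4% rose and 25.1% fell, together 41.5%. Among the other families 0 copies rose, and 2 fell, SNORD114-2 and SNORD115-38. The median difference, shTP63 minus shControl on the log2 scale, was 0.40 for SNORD116, a 1.32-fold ratio, against -0.09 for SNORD115, -0.12 for SNORD114, -0.01 for SNORD113 and -0.01 for all genes. Box C/D snoRNA genes from elsewhere in the genome were higher as well: 58 of 69 rose and 0 fell (median difference 0.43). In bulk RNA a change in the number of cells that make a transcript and a change in the amount per cell cannot be told apart. Per the labels' protocols cDNA was primed with oligo-dT, whereas mature snoRNAs carry no poly(A) tail, so what these probe sets read (mature snoRNA, precursor or host intron) is uncertain.

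The array medians over all probe sets were 7.54, 7.57 and 7.56 in shTP63 against 7.47, 7.44 and 7.44 in shControl (log2), so they did not overlap between groups. Across all probe sets, which are not independent, the correlation was 0.996 to 0.998 within a group and 0.988 to 0.991 between groups. Olfactory receptor genes, mostly silent outside the nose, gave the measure of background: 95% of 360 had a mean log2 level under 6.81. The 9 measured of 12 keratinocyte markers were bright, with mean levels of 12.17 to 13.57, and 2 rose and 4 fell. Of 7 measured of 8 neuronal markers, 1 rose (SYT1) and 1 fell (NEFL), and the summed linear intensity was 1181 to 1226 in shTP63 and 1365 to 1464 in shControl. That sum is weighted most by NEFL, the brightest of the 7 with a mean level of 9.70, which fell by 0.36. Of the 7, 5 had a mean level under the measure of background. Of the fibroblast, melanocyte and immune markers, 1 of 8, 1 of 5 and 2 of 4 measured rose, beside 16.4% of all genes, and 1 fibroblast marker fell. The immune markers that rose were CD14, by 0.70 or 1.63-fold, and CD68, by 0.75 or 1.69-fold, while PTPRC, the leukocyte antigen CD45, had a mean of 4.27 in shTP63 and 4.31 in shControl, under the measure of background. Their part in the snoRNA results was not tested.

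The SNURF start lies at the head of the unit that holds SNORD116 and SNORD115, and MEG3 begins the unit before SNORD113 and SNORD114, so the 250 bases upstream of each start are shown. Both are on the plus strand of GRCh38.p14 as given by RefSeq, at chr15:24954737-24954986 for SNURF and chr14:100825858-100826107 for MEG3. For the array itself the sources used here give no build, and no probe position is printed. Capitals mark matches to 3 motifs, picked after the sequences were seen and searched on both strands: the cAMP response element TGACGTCA, the NRF1 core GCGCATGC and the p53 family consensus decamer.
SNURF: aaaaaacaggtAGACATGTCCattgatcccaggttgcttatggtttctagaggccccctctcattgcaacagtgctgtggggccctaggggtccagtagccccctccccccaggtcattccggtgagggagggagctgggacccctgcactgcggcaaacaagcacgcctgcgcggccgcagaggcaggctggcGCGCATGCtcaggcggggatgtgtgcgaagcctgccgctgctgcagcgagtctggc
MEG3: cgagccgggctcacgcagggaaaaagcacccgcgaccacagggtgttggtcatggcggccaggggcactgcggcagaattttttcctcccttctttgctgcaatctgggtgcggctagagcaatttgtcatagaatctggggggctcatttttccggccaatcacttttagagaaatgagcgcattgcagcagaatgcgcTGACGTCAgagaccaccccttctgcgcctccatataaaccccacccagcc
The SNURF window held 1 match to the p53 family decamer, which 5.57% of 35116 windows of the same length hold, and 1 to the NRF1 core, held by 2.63%. The MEG3 window held 1 cAMP response element, held by 1.65%, and no match to the other motifs. The matches did not overlap. A match is a run of letters and not a bound site. SNURF held 12 CG pairs and MEG3 13.

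SNORD116 copies showed most of the change. SNORD116-13 had the largest difference of all 46 genes, with 8.14, 7.66 and 7.89 in shTP63 against 6.94, 7.09 and 7.18 in shControl (log2 intensity). Each shTP63 value lay above each shControl value, and the means were 7.89 ± 0.242 in shTP63 and 7.07 ± 0.120 in shControl (SD, n = 3 each). The difference was 0.82 (SE 0.112), or 1.77-fold (limma adjusted p = 0.000369).

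SNORD116-29, a copy at the far end of the family, had 7.78, 7.26 and 7.52 in shTP63 against 6.84, 6.86 and 6.91 in shControl. It rose by 0.65 (SE 0.108, limma adjusted p = 0.00116), and the groups did not overlap. SNORD116-15, the copy with the brightest probe set, had 13.04, 12.84 and 13.05 in shTP63 against 12.67, 12.64 and 12.66 in shControl. It rose by 0.32 (SE 0.061), or 1.25-fold (limma adjusted p = 0.00249), with shControl arrays far closer together than shTP63 arrays.

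SNORD116-18 had a difference of 0.67 (SE 0.245) that missed the threshold (limma adjusted p = 0.0556) and passed without shTP63 replicate 2 (0.0206) or shControl replicate 2 (0.0478). Its values were 7.39, 6.33 and 6.55 in shTP63 against 6.10, 6.36 and 5.80 in shControl, and its mean level, 6.42, was under the measure of background. A shTP63 value, that of replicate 2, lay below the highest shControl value, and replicate 1 stood well above the rest. SNORD116-10 had 4.30, 4.15 and 4.25 in shTP63 against 4.32, 4.29 and 4.27 in shControl, the smallest difference of the family at -0.06 (SE 0.050, limma adjusted p = 0.393), at an intensity under the measure of background.

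The remaining SNORD116 copies, named in addition to those the naming rule picked, fell into 3 blocks of copy numbers that are usually distinguished by sequence. Of the block from copy 1 to copy 9, 2 genes were measured alone and both rose. SNORD116-1 had 10.11, 9.62 and 9.62 in shTP63 against 9.06, 9.18 and 9.27 in shControl, a difference of 0.61 (SE 0.124). SNORD116-6 had 8.71, 8.31 and 8.29 in shTP63 against 8.15, 8.06 and 8.12 in shControl, a difference of 0.33 (SE 0.102), whose call was lost without shControl replicate 2 (limma adjusted p = 0.0854) or replicate 3 (0.0616), after another quantile normalization (0.101) and after centring on the array median (0.0923).

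Of the block from copy 10 to copy 24, 9 of 13 rose and 0 fell (median 0.41). Its brightest probe sets besides SNORD116-15 were those of SNORD116-14, SNORD116-20 and SNORD116-24. SNORD116-14 had 12.31, 12.14 and 12.32 in shTP63 against 11.78, 11.77 and 11.76 in shControl, a difference of 0.49 (SE 0.055, limma adjusted p = 0.000133). SNORD116-21 had the smallest adjusted p of the family, 5.02e-05 in limma, with 9.65, 9.49 and 9.54 in shTP63 against 8.91, 9.02 and 8.87 in shControl and a difference of 0.62 (SE 0.059). SNORD116-20 rose by 0.33 (SE 0.052) and SNORD116-24 by 0.49 (SE 0.065). SNORD116-11 rose by 0.62 (SE 0.138) and SNORD116-23 by 0.31 (SE 0.064). SNORD116-12 rose by 0.41 (SE 0.141) at levels of 4.83 in shTP63 and 4.42 in shControl, under the measure of background, and its call (limma adjusted p = 0.0442) passed in only 4 of 14 alternatives, with adjusted p of 0.0192 to 0.132. It was lost without shTP63 replicate 1 or 3 and without shControl replicate 1 or 2. SNORD116-22 differed by 0.38 (SE 0.151, limma adjusted p = 0.0727) and passed only without shTP63 replicate 2 (0.0391). SNORD116-16 differed by 0.10 (SE 0.069) and passed only without shControl replicate 1 (0.18, limma adjusted p = 0.0379). The mean levels of SNORD116-22 and SNORD116-16, 6.64 and 4.22, were under the measure of background.

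Of the block from copy 25 to copy 29, 4 of 5 rose and 0 fell (median 0.38). SNORD116-27 had 9.17, 8.72 and 8.83 in shTP63 against 8.41, 8.39 and 8.28 in shControl, a difference of 0.54 (SE 0.104). SNORD116-25 rose by 0.38 (SE 0.082) and SNORD116-26 by 0.31 (SE 0.065), while SNORD116-28, at 0.19 (SE 0.077), missed the threshold (limma adjusted p = 0.0753) and passed only without shControl replicate 3 (0.28, adjusted p = 0.00517). The mean level of SNORD116-28, 5.11, was under the measure of background.

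**Figure D1:**
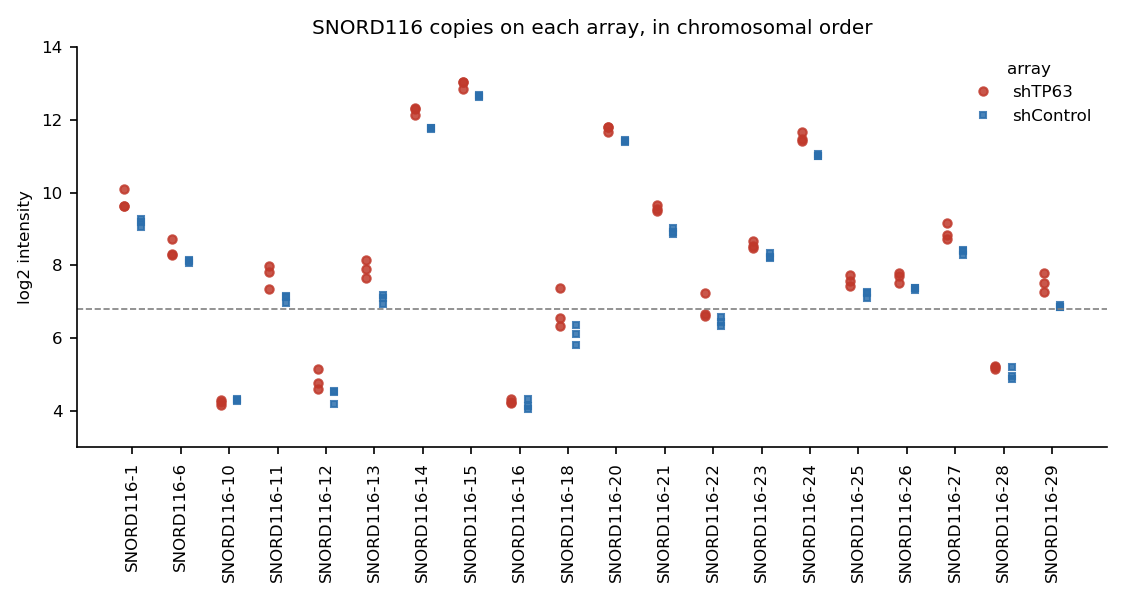
Log2 intensity of the 20 SNORD116 copies on each of the 6 arrays, in RefSeq order along chromosome 15; circles are shTP63 arrays, squares shControl arrays, and the dashed line is the measure of background, 6.81. In 16 of 20 copies each circle lies above each square, and the largest gap is that of SNORD116-13 at 0.82.

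In 16 of 20 SNORD116 copies the 3 shTP63 values all lay above the 3 shControl values, and in the other 4 the groups overlapped. Over all genes the groups did not overlap in 51.4%, in either direction. The calls split by level. Of the 14 copies with a mean level above the measure of background 14 rose, whereas 1 of the 6 copies under it did. The differences split less: the median was 0.49 above the measure and 0.29 under it, where 5 of the 6 copies had a higher mean in shTP63. Calls depend on level in all genes as well, with 10.8% passing in the dimmest of 5 equal bins of level and 69.3% in the brightest. The level and the difference were weakly related across the 20 copies (Pearson r of 0.31, Spearman rho of 0.20), which share a host unit and near-identical sequence. Intensities of different probe sets also depend on the probes, so a brighter set does not show a more abundant copy. Near-identical copies may also share signal, so the value of a single copy is uncertain.

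The shTP63 arrays differed among themselves in a way that ran through the family. Replicate 1 was the highest of the shTP63 arrays in 16 of 20 SNORD116 copies, and replicate 2 was the lowest in 19 of 20. Over all 18404 genes replicate 1 was the highest in 5467 and replicate 2 the lowest in 4796. Copies that share signal are not separate counts of this pattern. The median over the 20 copies was 8.05, 7.59 and 7.85 in shTP63 replicates 1 to 3, against 7.25, 7.32 and 7.28 in the shControl replicates. Over the 69 box C/D genes outside the clusters, replicate 1 was the highest in 23 and replicate 2 the lowest in 34. Without shTP63 replicate 1 the median SNORD116 difference was 0.33 and 14 copies rose. Without shTP63 replicate 2 it was 0.51 and 17 rose. The 13 copies that rose with each of the 6 arrays left out in turn were SNORD116-1, SNORD116-11, SNORD116-13, SNORD116-14, SNORD116-15, SNORD116-20, SNORD116-21, SNORD116-23, SNORD116-24, SNORD116-25, SNORD116-26, SNORD116-27 and SNORD116-29.

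The SNORD115 copies, which follow SNORD116 in the same host unit, lay near the floor of the arrays. All 20 had mean levels of 2.91 to 4.34, under the measure of background and in the dimmest of 5 equal bins of level, where 10.8% of 3680 genes passed. Background in the signal shrinks differences of dim probe sets, so a copy that missed the threshold is not shown to be constant. In shTP63 17 of 20 had a lower mean and 3 a higher mean, and 1 passed. Over all genes 9805 of 18404 had a lower mean. Relative to the median of all genes the SNORD115 median was -0.07. It was -0.02 after another quantile normalization and -0.09 without shControl replicate 1.

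SNORD115-38 was the copy that passed, with 3.23, 3.28 and 3.35 in shTP63 against 3.41, 3.68 and 3.42 in shControl. It fell by 0.22 (SE 0.075, limma adjusted p = 0.0443), and the groups did not overlap. The call was lost without shTP63 replicate 1 (limma adjusted p = 0.124), shTP63 replicate 2 (0.104) or shControl replicate 2 (0.114), and in 3 other alternatives.

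SNORD115-32 had the brightest SNORD115 probe set and the widest difference, -0.30 (SE 0.110). Its values were 4.19, 3.94 and 4.43 in shTP63 against 4.61, 4.45 and 4.40 in shControl, and shTP63 replicate 3 lay within the shControl values. It missed the threshold (limma adjusted p = 0.0554) but passed in 6 of 14 alternatives: without shTP63 replicate 3 (0.00668), after another quantile normalization (0.0241), centring (0.00874) or cyclic loess (0.0421), with a trended robust prior (0.0291) and with array weights (0.0292). SNORD115-25 had 3.45, 3.34 and 3.72 in shTP63 against 3.56, 3.96 and 3.53 in shControl, a difference of -0.18 (SE 0.127) with overlapping groups. SNORD115-31 was the copy nearest to 0, with 3.32, 3.58 and 3.45 in shTP63 against 3.56, 3.31 and 3.48 in shControl. The other 16 copies differed by -0.17 to 0.10, of which SNORD115-4 and SNORD115-37 had groups that did not overlap, both lower in shTP63, with limma adjusted p of 0.119 and 0.0522. SNORD115-37 passed in 5 of 14 alternatives, among them without shControl replicate 1, and SNORD115-4 only after centring. SNORD115-8 and SNORD115-28 passed as lower without shTP63 replicate 3, and SNORD115-24 passed as higher without shTP63 replicate 1.

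The 14q32 copies were also dim, with mean levels of 3.43 to 4.58, and all 6 lay in the dimmest bin. SNORD114-2 had 4.07, 4.19 and 4.06 in shTP63 against 4.51, 4.33 and 4.24 in shControl. The groups did not overlap, and it fell by 0.25 (SE 0.071, limma adjusted p = 0.0190), a call lost without shTP63 replicate 1 (limma adjusted p = 0.0598) or replicate 3 (0.0599).

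SNORD114-26, a copy further along the array of repeats, had 4.56, 4.38 and 4.53 in shTP63 against 4.88, 4.50 and 4.64 in shControl, a difference of -0.18 (SE 0.092) that did not pass (limma adjusted p = 0.148). Centring made it pass (limma adjusted p = 0.0172), as did leaving out shControl replicate 2 (-0.27, 0.0415), whereas leaving out shControl replicate 1 gave -0.079. SNORD114-6 had 3.36, 3.28 and 3.57 in shTP63 against 3.51, 3.40 and 3.45 in shControl. The groups overlapped in SNORD114-26 and in SNORD114-6.

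SNORD114-3 had 4.09, 4.23 and 4.13 in shTP63 against 4.19, 4.09 and 4.05 in shControl, the smallest SNORD114 difference at 0.04 (SE 0.055). The SNORD113 copies overlapped between groups as well. SNORD113-3 had 4.12, 4.12 and 4.10 in shTP63 against 4.11, 4.01 and 4.06 in shControl, a difference of 0.05 (SE 0.043). SNORD113-4 had 3.42, 3.44 and 3.42 in shTP63 against 3.60, 3.41 and 3.48 in shControl, a difference of -0.07 (SE 0.054).

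**Figure D2:**
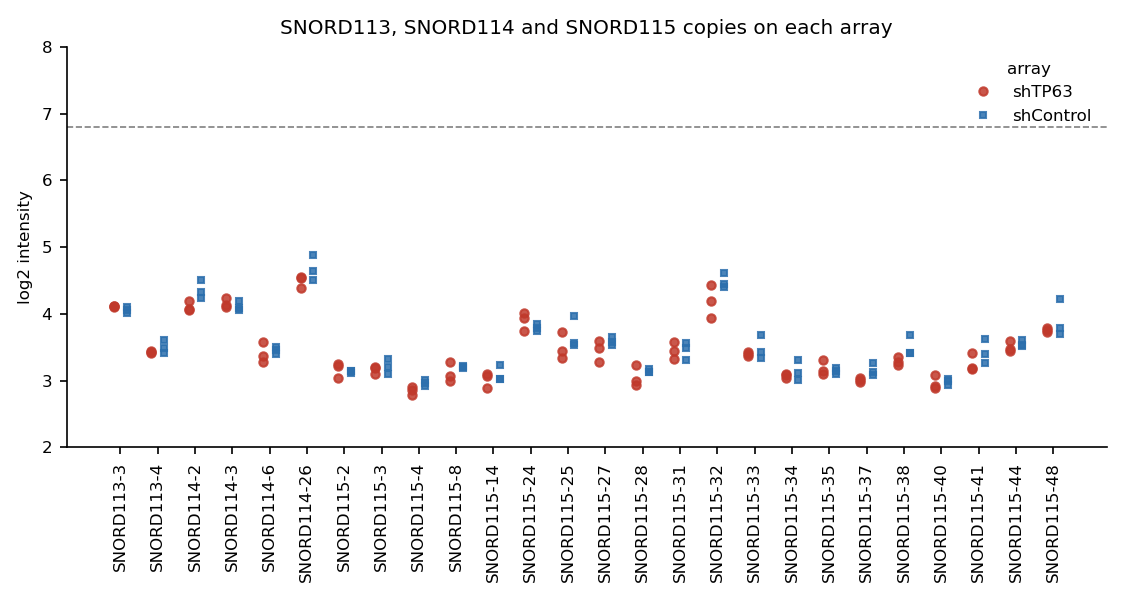
Log2 intensity of the 26 SNORD113, SNORD114 and SNORD115 copies on each of the 6 arrays; circles are shTP63, squares shControl, and the dashed line is the measure of background, 6.81. Each array value of each copy lies under the line, and the groups overlap in most copies.

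Set side by side, the 14q32 cluster had 0 of 6 copies that rose and 1 that fell, with a median difference of -0.06, and the 15q11 cluster 15 of 40 that rose and 1 that fell, with a median of 0.07. Over all genes 16.4% rose and 25.1% fell. In the dimmest bin of level, which held all 6 14q32 copies, 233 of 3680 genes rose and 163 fell. The 0 of 6 that rose thus says little about that cluster. The medians differed by -0.13, 14q32 minus 15q11. The 15q11 median mixes 2 families that lay apart, SNORD116 with differences of -0.06 to 0.82 and SNORD115 with differences of -0.30 to 0.10. No test was run on the difference between clusters, and the 14q32 copies were under the measure of background in both groups. After centring of each array (the median difference of all genes then being -0.12 in place of -0.01), the split over all 46 genes was 13 higher and 13 lower in place of 15 and 2, and SNORD116 had 13 higher and 1 lower (SNORD116-10). Over all genes 9714 of 18404 then passed in either direction, in place of 7634. Relative to the median of all genes the SNORD116 median was 0.41 on both scales. Centring shifts all genes of an array by the same amount, so this value could not change and is no test of the rise.

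**Figure D3:**
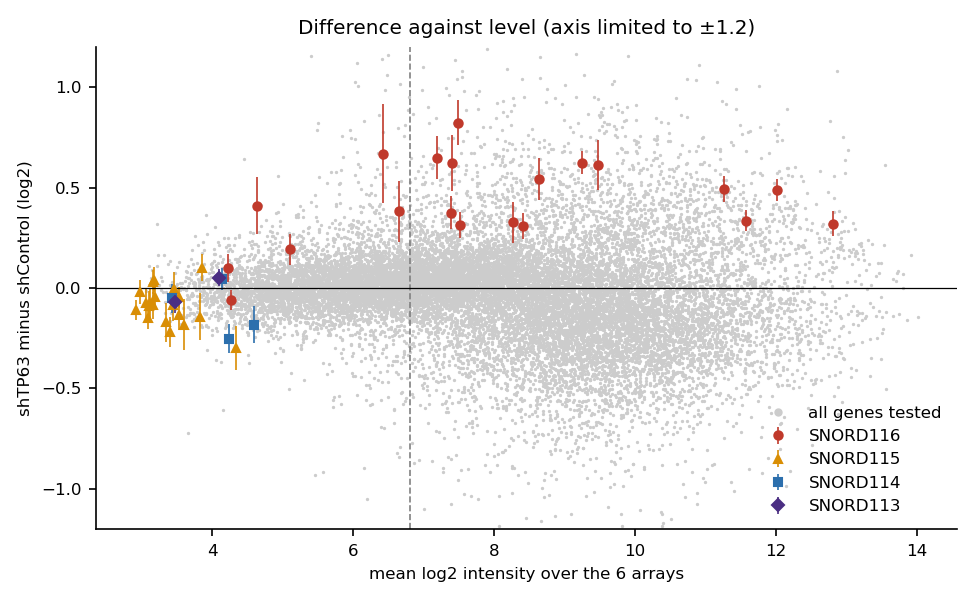
Difference in log2 intensity, shTP63 minus shControl, against mean log2 intensity over the 6 arrays; coloured symbols with bars (1 SE) are the 4 families, grey points the other genes tested (those beyond 1.2 in either direction lie outside the axis), and the dashed line is the measure of background, 6.81. SNORD116 copies to the right of the line lie between 0.31 and 0.82, and the other families crowd near 0 at the dim end.

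Other classes of small RNA gave the setting for the SNORD116 rise. Of 61 box H/ACA snoRNA genes, which guide pseudouridylation, 50 rose and 0 fell (median 0.30). Of 16 scaRNA genes, which act in Cajal bodies on spliceosomal RNAs, 11 rose and 0 fell, with a median of 0.36. Of 189 microRNA genes, 55 rose and 4 fell, with a median of 0.08, and of 360 olfactory receptor genes 20 rose and 5 fell. The medians over box C/D genes outside the clusters were 9.51, 9.34 and 9.34 in shTP63, against 8.69, 8.72 and 8.80 in shControl. No test was run between SNORD116 and these classes, so the rise is not shown to be particular to the imprinted family.

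**Figure D4:**
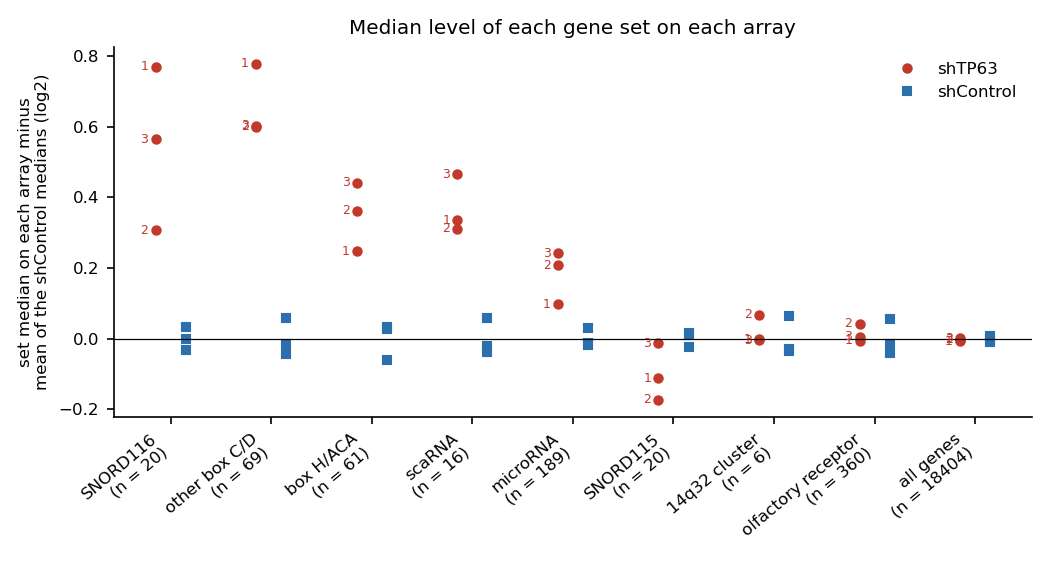
Median log2 intensity of each gene set on each array, less the mean of the 3 shControl medians; circles with replicate numbers are shTP63, squares shControl, and n is the number of genes in the set. SNORD116 and the other box C/D, box H/ACA and scaRNA sets lie above 0 on each shTP63 array, with shTP63 replicate 2 the lowest for SNORD116, while the 14q32 cluster and olfactory receptor genes lie near 0. By smaller amounts, the microRNA set lies above 0 and SNORD115 below 0 on each shTP63 array. The SNORD115 medians overlap between groups, at 3.30 on shTP63 replicate 3 against 3.29 on shControl replicate 2.

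Few probe sets read the host units themselves. A probe set annotated to SNURF and SNRPN together, the protein-coding head of the 15q11 unit, had 9.71, 9.61 and 9.58 in shTP63 against 9.69, 9.70 and 9.73 in shControl. The groups overlapped, and the difference was -0.07. It was in no test because it carries several symbols, and SNHG14 itself was not analysed here. PWAR6, a noncoding RNA gene of the same region, had 4.27, 4.26 and 4.49 in shTP63 against 3.81, 4.30 and 4.27 in shControl, and its difference of 0.22 (SE 0.125) did not pass (limma adjusted p = 0.210).

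UBE3A, a ubiquitin ligase gene that the SNHG14 transcript overlaps in antisense, fell by 0.26 (SE 0.055, limma adjusted p = 0.00486). It had 9.15, 9.28 and 9.31 in shTP63 against 9.45, 9.55 and 9.51 in shControl, and the groups did not overlap. MKRN3, a paternally expressed inhibitor of puberty onset, rose by 0.19 (SE 0.059, limma adjusted p = 0.0292), and NPAP1, a nuclear pore-associated protein gene, fell by 0.13 (SE 0.045, limma adjusted p = 0.0408). MKRN3 lost its call without shTP63 replicate 2 or 3 or shControl replicate 1 or 3 (limma adjusted p of 0.0550 to 0.109). NPAP1 lost it without shTP63 replicate 1 or 3 or shControl replicate 1 or 3 (0.0894 to 0.125). With the replicate number as a block the adjusted p was 0.0646 for MKRN3 and 0.0803 for NPAP1. MKRN3 also lost its call after another quantile normalization and after centring, and its largest limma adjusted p over the alternatives was 0.264. NPAP1 also lost its call with a trended robust prior and with array weights. The necdin gene NDN, its relative MAGEL2 and the phospholipid flippase gene ATP10A differed by 0.01, 0.02 and 0.02 and did not pass. Of the 7 measured of 14 listed 15q11 genes, 1 rose and 2 fell, shares close to the 16.4% and 25.1% of all genes.

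Of the 7 measured of 9 listed 14q32 genes 0 rose and 0 fell, beside 16.4% and 25.1% of all genes. Of the 7, 4 had a mean level under the measure of background, so the count does not show the locus to be unchanged. MEG3, the maternally expressed noncoding RNA at the head of the unit, had 6.68, 6.87 and 6.69 in shTP63 against 6.82, 6.80 and 6.66 in shControl, a difference of -0.01 (SE 0.066). The paternally expressed Notch-like protein gene DLK1 differed by -0.04 (SE 0.063), the retrotransposon-derived RTL1 by 0.10 (SE 0.123), the deiodinase gene DIO3 by -0.01 (SE 0.052) and its antisense partner DIO3OS by 0.04 (SE 0.049). The flanking genes BEGAIN and WDR25 differed by 0.10 (SE 0.057) and -0.08 (SE 0.051). The smallest limma adjusted p among these 7 genes was 0.217, that of BEGAIN. RTL1 passed without shControl replicate 1 (0.25, limma adjusted p = 0.0288), and WDR25 passed as lower after centring (0.0188).

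**Figure D5:**
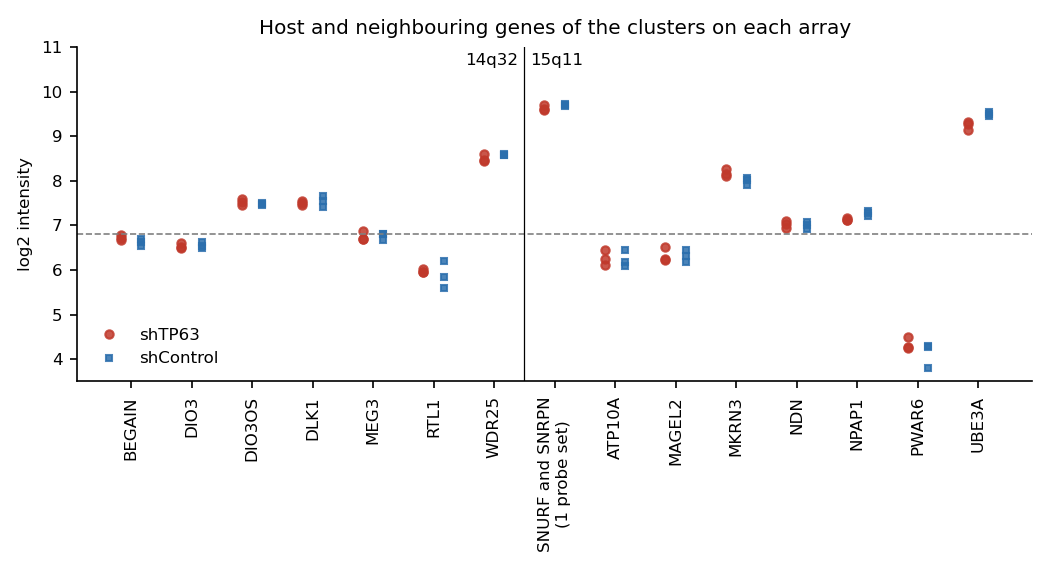
Log2 intensity of the host and neighbouring genes of the 14q32 (left) and 15q11 (right) clusters on each array; circles are shTP63, squares shControl, and the dashed line is the measure of background, 6.81. UBE3A is lower in each shTP63 array than in each shControl array, and the probe set of SNURF and SNRPN overlaps between groups near 9.7.

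For the genes of the proteins that bind and assemble box C/D snoRNAs, of 11 measured of 13 listed genes 0 rose and 4 fell, the list median being -0.11 against -0.01 for all genes. Over all genes 25.1% fell, and in the 2 brightest of the 5 bins of level, which hold 10 of the 11, 1618 of 3681 and 1583 of 3681 genes fell, so the list's count is no higher than that of genes at its level. ZNHIT3, an assembly factor, had 8.81, 8.78 and 8.89 in shTP63 against 9.23, 9.27 and 9.26 in shControl and fell by 0.43 (SE 0.046, limma adjusted p = 9.94e-05). FBL, fibrillarin itself, had 11.26, 11.26 and 11.31 in shTP63 against 11.55, 11.54 and 11.58 in shControl and fell by 0.28 (SE 0.041, limma adjusted p = 0.000639). RUVBL1, an ATPase of the assembly machinery, fell by 0.28 (SE 0.049, limma adjusted p = 0.00163) and the nucleolar chaperone NOLC1 by 0.16 (SE 0.049, limma adjusted p = 0.0240). NOLC1 lost its call without shTP63 replicate 3 or without any 1 shControl array. NOP58, the core protein beside fibrillarin, differed by 0.02 (SE 0.043) and did not pass.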

How the data were processed

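RNA of 6 HaCaT samples was measured on 1-colour arrays of 32321 probe sets. Per the submitters' processing notes the authors made the deposited intensity values with RMA in R 2.15.1, a method that usually brings arrays close to a common distribution. The deposited intensity was linear, and its log2 was used here. Its array medians were 187, 190 and 188 in shTP63 against 177, 173 and 174 in shControl, so they split by group, and centring each array on its median was an alternative. Names came from the supplied platform annotation: 19158 probe sets with 1 gene, 1388 with several and 11775 unlisted. RefSeq lists 118 copies of the 4 families, of which 46 had a probe set of their own, 31 appeared only on probe sets with several symbols and 41 on none listed. Of the 46, 11 also appear on probe sets with several symbols, so near-identical copies may share signal. The probe set with the highest mean was taken per gene, and groups, from the titles, were compared with limma 3.58.1 (R 4.3.3), a two-sided moderated test without covariates, adjusted by Benjamini-Hochberg over 18404 genes at a threshold of 0.05. The code of the fit was run on simulated data with independent genes, few of them changed. In these data 41.5% of genes passed and near-identical copies may share signal, so that run does not bear on the calls. The number of arrays limits precision (median SD within groups 0.065). The naming rule took, per family, the 3 largest differences, the smallest, the highest level and any call against the family's majority, the genes of 2 locus lists and 4 box C/D protein genes. Other genes given with values were added after their values were seen. Other alternatives were the replicate block, other normalizations, filters, weights, priors and each array left out in turn. The members and lists were chosen with earlier results of these data known. Same-numbered replicates did not deviate together (correlations of -0.13, -0.03 and 0.08), so they were not treated as pairs. No snoRNA sequence was used here.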

Additional observations from a re-analysis of the deposited data

Results flagged for a closer look

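The probe sets annotated to several SNORD116 copies entered no test. In 5 of 6 of them each shTP63 value lay above each shControl value, as in 3852 of the 18404 genes tested. Of the 20 SNORD116 copies with a probe set of their own, 8 also appear on sets with several symbols. The 2 kinds of set are therefore not independent. The differences of the 5 sets, shTP63 minus shControl on the log2 scale, were 0.62, 0.50, 0.40, 0.35 and 0.38, and the last of these lists 10 symbols. The brightest of them had 12.50, 12.34 and 12.46 in shTP63 against 12.07, 12.07 and 12.03 in shControl. The sixth set, shared with SNRPN, differed by 0.27 with overlapping groups. The 6 probe sets annotated to several SNORD115 copies or to a copy with a neighbouring gene differed by -0.11 to 0.01, all with overlapping groups and all at levels of 2.95 to 3.22. Groups of 3 arrays were not screened for single outlying arrays.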

How the results depend on the processing

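The count of SNORD116 copies that rose was 13 to 15 over the 9 changes of method, each time among the 15 of the reported fit, and 14 to 17 with 1 array left out, and the median SNORD116 difference was 0.29 to 0.49 and 0.33 to 0.51. Recomputing the results of this family under the alternatives was chosen after seeing the data. With the replicate number as a block 7165 genes passed, 14 SNORD116 copies rose, and 0 15q11 copies fell in place of 1. All copies of the other families lay under the measure of background, where signal limits what can be called, and their calls moved more. Copies of 15q11 that fell numbered 3 after another quantile normalization, 10 after centring on the array median, 2 after cyclic loess, 0 without the dimmest 40% of probe sets, 3 with array weights and 0 to 4 with 1 array left out. Copies of 14q32 that fell numbered 3 after centring and 0 to 2 with 1 array left out. Beside the counts after centring, 9714 of 18404 genes then passed in either direction. After centring the 14q32 median difference was -0.17 and the 15q11 median difference was -0.037, of opposite sign to the reported 0.07. Without the dimmest 40% of probe sets the 15q11 median was 0.49, because the 14 copies left are all SNORD116, and no 14q32 copy was left to give a value. Counts of all genes passing were 6483 to 9714. The gap between cluster medians was negative wherever it could be computed, at -0.15 to -0.09. With the replicate block, centring and the trended robust prior it stayed at -0.13, because these changes cannot alter it. Averaging over probe sets could not alter it either, as each copy had a single one. These alternatives are therefore no test of the gap. The cause of changes under centring and the other normalizations was not tested.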

Other observations

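MicroRNA genes of the 14q32 region share the maternal MEG3-MEG8 unit with SNORD113 and SNORD114. Of the 16 measured microRNA genes that RefSeq places between MEG3 and DIO3, 1 rose and 0 fell (median difference -0.02), and 2 had a mean level above the measure of background, MIR127 and MIR134. The dimmest bin of level, which held 13 of the 16, had 10.8% of its genes passing, so a single call is close to what that level gives. MIR127 had 6.93, 7.01 and 6.84 in shTP63 against 7.04, 6.95 and 6.94 in shControl, with overlapping groups. MIR134 had 7.09, 7.26 and 7.15 in shTP63 against 7.16, 7.22 and 6.98 in shControl, again with overlap. The gene that rose was MIR323A, by 0.17 (SE 0.053, limma adjusted p = 0.0285), with 4.01, 4.15 and 4.15 in shTP63 against 3.95, 3.88 and 3.97 in shControl, under the measure of background. These genes were chosen after the values were seen.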
